A study of Coccomyxa subellipsoidea C-169 with 6 samples.

Results

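The genes described here carry product names of light-harvesting antenna proteins in Coccomyxa subellipsoidea, a single-celled green alga from Antarctica (strain C-169). They were chosen by product name alone, as the genes whose deposited protein name contains chlorophyll a-b binding, chlorophyll a/b, light-harvesting or LHC, in any case. This gave 25 genes of the 9490 listed. The names of 24 are chlorophyll a-b binding protein, chloroplastic (1 of them marked as a fragment), and the last, COCSUDRAFT_41411, is a chlorophyll a/b-binding protein. The names do not say which photosystem a protein serves, so the genes are identified by locus tag only, and no sequence was used to check them. RNA came from cultures in stationary phase, collected 3 hours before the dark phase, 3 of wild type (WT) and 3 of the genotype labelled Overexpressor CsubMADS1 OX (OX-labelled here). No treatment is given for either group. The labels call the 3 cultures of each group biological replicates, and do not say how many transformed lines they came from or which promoter drives the gene.

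Chlorophyll a-b binding proteins are made in the cytosol from nuclear genes, imported into the chloroplast and inserted into the thylakoid membrane, where they bind chlorophyll a, chlorophyll b and carotenoids. They form the outer antenna that absorbs light and passes the energy to the reaction centres of photosystems I and II. In green algae and plants, the amount of antenna is adjusted to light and to the state of the culture, in part through transcript levels.

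The 6 libraries held 3771499 to 5336375 counts, and the floor used here, 3 counts, equalled 0.562 to 0.795 counts per 1000000 (CPM). The 1 gene with a MADS-box product name, COCSUDRAFT_67545, held 95.3, 80.2 and 85.0 CPM in WT and 68.5, 59.0 and 54.8 CPM in the OX-labelled libraries. It was thus not higher under the OX label, and its log2 fold change of -0.51 (SE 0.18) did not pass (adjusted p = 0.0535 by the edgeR quasi-likelihood F test). The labels do not say whether this gene is CsubMADS1, or whether reads of an introduced copy would be counted there. The gene therefore cannot check the labels, and every direction below is that of the labels. On the second principal component (19.6% of the variance), OX replicate 3 lay far from OX replicates 1 and 2. Counts of called genes are therefore also given without it.

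The antenna family took a larger part of the messenger RNA in the OX-labelled libraries than in WT. In WT replicates 1 to 3 the 25 genes summed to 25222, 26158 and 19005 counts, and in OX-labelled replicates 1 to 3 to 118437, 79753 and 62968 counts. As a share of all counts, this was 0.509%, 0.561% and 0.504% in WT and 2.22%, 1.69% and 1.63% in the OX-labelled libraries. Every OX-labelled share lay above every WT share, with a mean of 0.525% ± 0.0318 (SD, n = 3) in WT and 1.85% ± 0.325 (SD, n = 3) in the OX-labelled libraries, a ratio of 3.52. Counting error was far smaller than this, with 95% exact binomial intervals of 0.503% to 0.515% in WT replicate 1 and 2.21% to 2.23% in OX replicate 1. No test was run on the summed share. Counts are relative to the library total, so more RNA of these genes and less of others cannot be told apart, nor can more RNA per cell and more cells with that RNA.

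**Figure D1:**
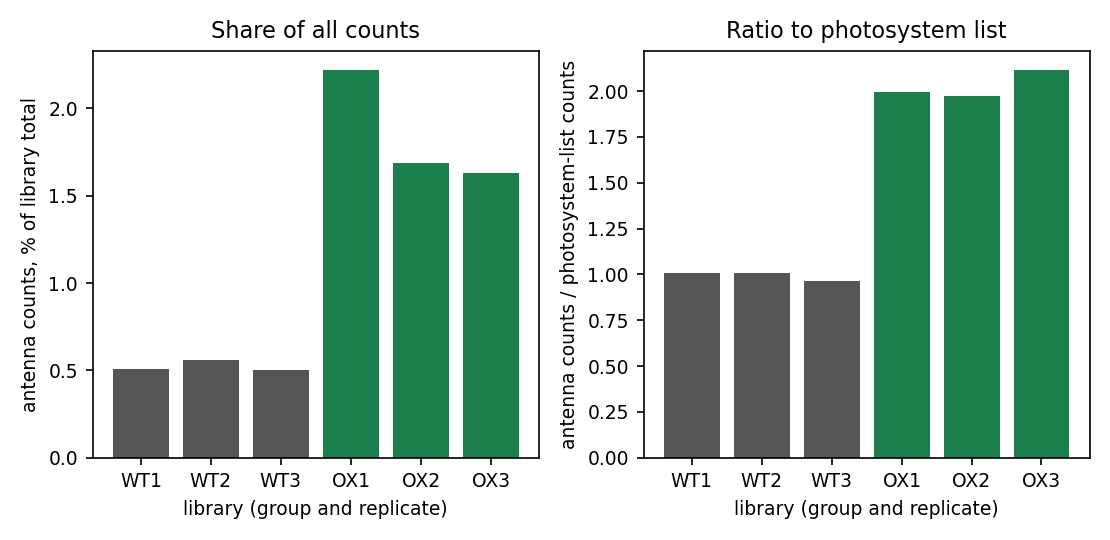
Left, the summed counts of the 25 antenna genes as a percentage of all counts in each of the 6 libraries; right, the same sum divided by the summed counts of the 25 genes of the photosystem list. Grey bars are WT and green bars OX-labelled libraries; the shares are 0.504% to 0.561% in WT and 1.63% to 2.22% in the OX-labelled libraries, and the ratios are near 1 in WT and near 2 in the others.

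The rise was spread over nearly all members. All 25 genes passed the filter on low counts, with 13 to 21492 counts in a library. In edgeR's quasi-likelihood test at an adjusted p under 0.05, 23 were higher in the OX-labelled libraries, 0 were lower and 2 did not pass, while 15.6% of all 8575 tested genes were called higher and 8.98% lower. The fitted change was 2-fold or more in each of these 23, while 8.86% of tested genes were called higher with a change of that size. Their OX-labelled libraries all lay above their WT libraries, as in 23.1% of tested genes. In 18 members the lowest OX-labelled library exceeded 2 times the highest WT library, against 3.23% of tested genes. The median log2 fold change was 1.92 over the 25 members and -0.0028 over all tested genes. Without OX replicate 3, 23 were again called higher and 0 lower, beside 18.9% higher and 14.3% lower of all 8630 tested genes.

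**Figure D2:**
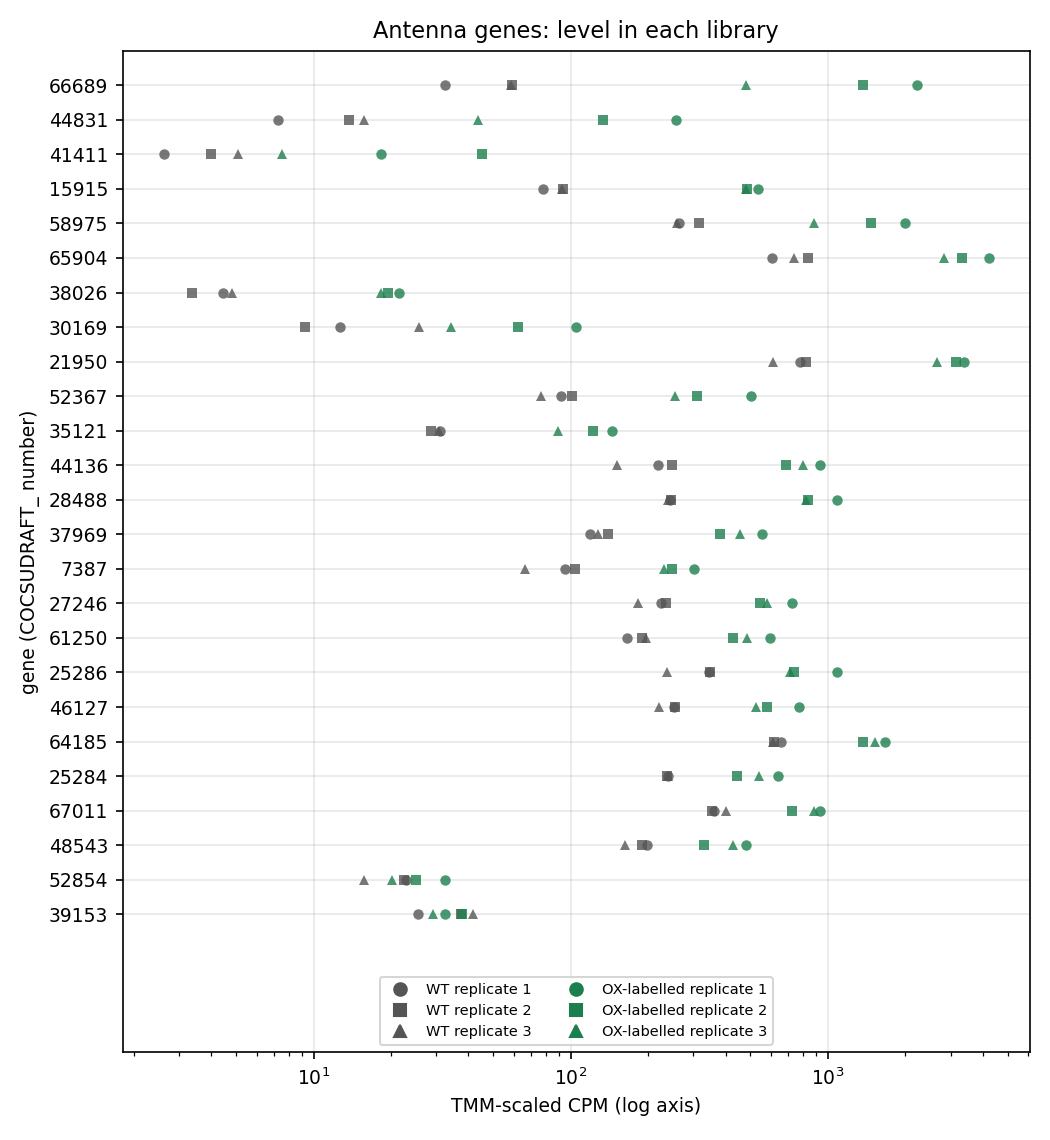
Level of each of the 25 antenna genes in each library, as CPM scaled by the trimmed mean of M values (TMM), on a log axis, with genes ordered by fold change. Grey points are WT and green points OX-labelled libraries, with a marker for each replicate; the groups are apart in 23 genes and overlap in COCSUDRAFT_52854 and COCSUDRAFT_39153, the bottom pair.

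The 3 members with the most WT counts rose by different amounts. COCSUDRAFT_65904 held 607, 837 and 736 CPM in WT and 4216, 3338 and 2842 CPM in the OX-labelled libraries (log2 fold change 2.25, SE 0.21, edgeR adjusted p = 5.47e-05). It ranked 246, 151 and 166 by counts among all genes in WT and 5, 11 and 14 in the OX-labelled libraries. It was thus among the 14 most counted genes in every OX-labelled library. COCSUDRAFT_21950 held 779, 819 and 612 CPM in WT and 3387, 3146 and 2658 CPM in the OX-labelled libraries (log2 fold change 2.06, SE 0.19, edgeR adjusted p = 5.47e-05), and ranked 12, 15 and 18 in the latter. COCSUDRAFT_64185 rose less, from 659, 619 and 610 to 1664, 1370 and 1524 CPM (log2 fold change 1.27, SE 0.17, edgeR adjusted p = 0.000439). Its 95% interval of 0.90 to 1.65 lay below the 1.79 to 2.72 of COCSUDRAFT_65904. No member was among the 100 most counted genes of any WT library, while 5, 5 and 3 were in OX-labelled replicates 1 to 3. Ranks by counts also depend on transcript length, for which no values were used.

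The 3 largest rises, in members with low to moderate WT levels, came with a wide spread among the OX-labelled libraries. COCSUDRAFT_66689 held 32.4, 59.2 and 58.7 CPM in WT and 2222, 1370 and 481 CPM in the OX-labelled libraries. The lowest of the latter was still over the highest WT value several times, and the fitted log2 fold change was 4.76 (SE 0.53, edgeR adjusted p = 0.000342), or 27.1-fold with a 95% interval of 11.9 to 61.8. COCSUDRAFT_44831 held 7.24, 13.7 and 15.7 CPM in WT and 256, 133 and 43.7 CPM in the OX-labelled libraries (log2 fold change 3.58, SE 0.58, edgeR adjusted p = 0.00215). This value was 2.87 without OX replicate 1, its highest library, and the gene was still called (edgeR adjusted p = 0.00377). COCSUDRAFT_41411, the member with its own product name, held 2.61, 4.0 and 5.06 CPM in WT and 18.2, 45.1 and 7.54 CPM in the OX-labelled libraries (log2 fold change 2.62, SE 0.57, edgeR adjusted p = 0.00833). Its call rested on few counts, 13 to 20 per WT library, and its log2 fold change was 1.76 without OX replicate 2. It did not pass without WT replicate 1 (edgeR adjusted p = 0.0509). A wide spread was also seen in COCSUDRAFT_30169, which held 12.7, 9.27 and 25.8 CPM in WT and 105, 62.3 and 34.2 CPM in the OX-labelled libraries, so that the groups nearly met (log2 fold change 2.10, SE 0.44, edgeR adjusted p = 0.00655).

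The log2 fold changes of COCSUDRAFT_15915 and COCSUDRAFT_38026 had 95% intervals below that of COCSUDRAFT_66689, with OX-labelled libraries closer together. COCSUDRAFT_15915 held 78.0, 93.5 and 92.8 CPM in WT and 534, 484 and 478 CPM in the OX-labelled ones, with the lowest p of the family (log2 fold change 2.50, SE 0.18, edgeR adjusted p = 5.78e-06). COCSUDRAFT_38026, a low member, held 4.42, 3.37 and 4.80 CPM in WT and 21.4, 19.5 and 18.4 CPM in the OX-labelled libraries (log2 fold change 2.23, SE 0.27, edgeR adjusted p = 0.000239). The highest OX-labelled library was 1.12 and 1.17 times the lowest in these genes, against 4.62 times in COCSUDRAFT_66689. COCSUDRAFT_58975 held 263, 315 and 259 CPM in WT but 1994, 1473 and 886 CPM in the OX-labelled libraries, a spread of 2.25 times (log2 fold change 2.38, SE 0.27, edgeR adjusted p = 0.000164), with OX replicate 3 the lowest, as in COCSUDRAFT_66689, COCSUDRAFT_44831, COCSUDRAFT_41411 and COCSUDRAFT_30169.

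A middle group rose by 1.46 to 1.98 on the log2 scale. COCSUDRAFT_35121 went from 30.2 ± 1.31 to 119 ± 27.5 CPM (SD, n = 3), with 1.98 on the log2 scale (edgeR adjusted p = 0.000122). COCSUDRAFT_44136 held 219, 248 and 151 CPM in WT and 931, 687 and 803 CPM in the OX-labelled libraries, with a log2 fold change of 1.97 (edgeR adjusted p = 0.000155). COCSUDRAFT_28488 had nearly the same level in all 3 WT libraries, 242 ± 3.53 CPM, and 915 ± 145 CPM in the OX-labelled ones (SD, n = 3). Its log2 fold change was 1.92 (edgeR adjusted p = 6.03e-05). That value is also the median of the family. COCSUDRAFT_37969 went from 129 ± 10.6 to 464 ± 87.3 CPM (SD, n = 3), rising by 1.85 on the log2 scale (edgeR adjusted p = 0.000109). The fragment COCSUDRAFT_7387 went from 88.6 ± 19.7 to 260 ± 37.7 CPM (SD, n = 3), or 1.55 on the log2 scale (edgeR adjusted p = 0.000442). Close to it were COCSUDRAFT_27246, from 213 ± 27.7 to 617 ± 96.1 CPM (SD, n = 3), and COCSUDRAFT_61250, from 183 ± 16.0 to 502 ± 86.8 CPM (SD, n = 3), with log2 fold changes of 1.53 and 1.46 (edgeR adjusted p = 0.000296 and 0.000354). Below this group, COCSUDRAFT_67011 went from 372 ± 25.5 to 847 ± 108 CPM (SD, n = 3), or by 1.19 on the log2 scale (edgeR adjusted p = 0.000784).

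Of the 25 members, 5 lay directly beside another member in the gene order of the reference annotation, in a row of 3 and a pair. The row of 3 rose by similar amounts. COCSUDRAFT_25284 held 238, 237 and 238 CPM in WT and 642, 445 and 540 CPM in the OX-labelled libraries (log2 fold change 1.19, SE 0.19, edgeR adjusted p = 0.00103). Its neighbour COCSUDRAFT_25286 held 345, 349 and 237 CPM in WT and 1084, 738 and 712 CPM in the OX-labelled libraries (log2 fold change 1.44, SE 0.23, edgeR adjusted p = 0.00105). Next in the row, COCSUDRAFT_48543 held 198, 189 and 162 CPM in WT and 480, 329 and 429 CPM in the OX-labelled libraries (log2 fold change 1.17, SE 0.19, edgeR adjusted p = 0.00135). All 3 changes were below the family median, and their 95% intervals overlapped one another. In the pair, COCSUDRAFT_46127 went from 243 ± 20.1 to 624 ± 129 CPM and COCSUDRAFT_52367 from 89.8 ± 12.2 to 355 ± 129 CPM (SD, n = 3), with log2 fold changes of 1.36 (SE 0.20) and 1.98 (SE 0.25) and edgeR adjusted p = 0.000621 and 0.000309. The annotated spans of this pair overlap, and the sources used here do not give the strand setting of the counting, so their reads cannot be told apart with certainty where they overlap.

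The genes around the members had fold changes near 0 at the median. For each member, the median log2 fold change of the 20 nearest tested genes outside the family on its scaffold was taken, and over the 25 members this ran from -0.21 to 0.25 with a median of -0.05. The highest value, 0.25, was beside COCSUDRAFT_37969, whose own value was 1.85. Of the 25 members, 24 had a fold change above the median of their neighbours. The exception was COCSUDRAFT_39153, at -0.07 against 0.02. Since the medians lay near 0, this count adds little to the 24 members with a log2 fold change above 0. Members lying close together also shared neighbours, and no such count was made for all genes. The members were spread over 12 scaffolds of that annotation.

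**Figure D3:**
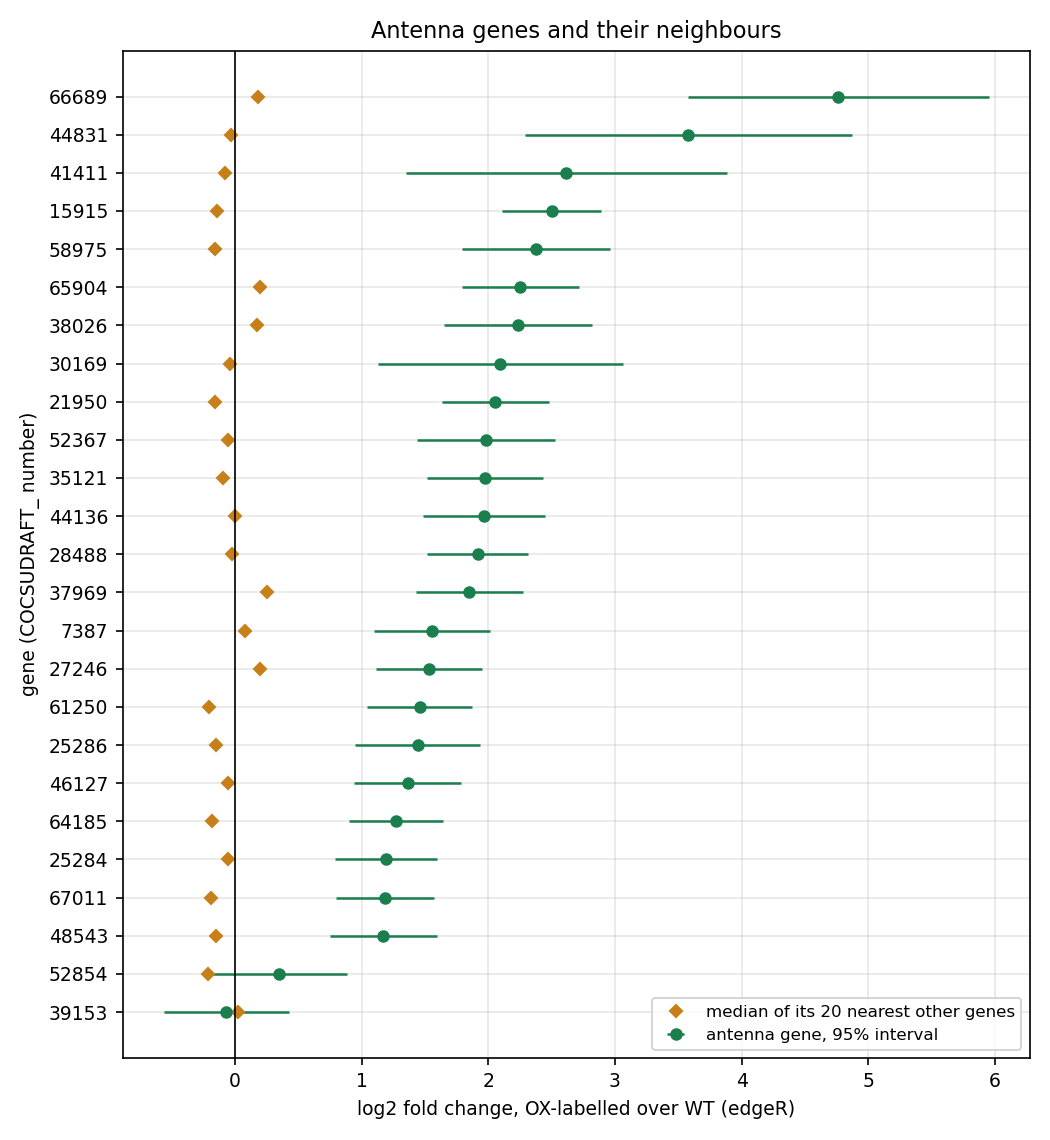
Log2 fold change of each antenna gene, OX-labelled over WT, from edgeR (green points, bars are 95% intervals) and the median log2 fold change of its 20 nearest tested genes outside the family (orange diamonds). The orange diamonds lie between -0.21 and 0.25, and the green points reach 4.76 for COCSUDRAFT_66689.

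Only 2 of the 25 members did not pass the test, and both had low levels. COCSUDRAFT_52854 held 22.9, 22.5 and 15.7 CPM in WT and 32.6, 25.1 and 20.1 CPM in the OX-labelled libraries, with overlap between the groups. Its log2 fold change was 0.35 (SE 0.25, edgeR adjusted p = 0.326), with a 95% interval of -0.19 to 0.88. COCSUDRAFT_39153 held 25.5, 37.3 and 41.7 CPM in WT and 32.6, 37.7 and 29.2 CPM in the OX-labelled libraries. Its log2 fold change was -0.07 (SE 0.23, edgeR adjusted p = 0.856), with a 95% interval of -0.56 to 0.42. Both intervals end below that of COCSUDRAFT_28488, which began at 1.52. COCSUDRAFT_38026 and COCSUDRAFT_41411 passed with fewer counts in WT than either.

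The members thus differed in how far they rose. Beside the family median of 1.92, the 95% interval lay above it for 3 members, COCSUDRAFT_66689, COCSUDRAFT_44831 and COCSUDRAFT_15915. It lay below it for 8, which were the members with no call, COCSUDRAFT_52854 and COCSUDRAFT_39153, and the called members COCSUDRAFT_25284, COCSUDRAFT_46127, COCSUDRAFT_48543, COCSUDRAFT_61250, COCSUDRAFT_64185 and COCSUDRAFT_67011. For the other 14 members the interval held the median. The median comes from these same values, so this is a description.

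With unequal rises, the make-up of the antenna counts also differed between the groups. COCSUDRAFT_66689 made up 0.638%, 1.07% and 1.22% of the antenna counts in WT and 9.57%, 7.66% and 3.04% in the OX-labelled libraries. COCSUDRAFT_65904 made up 12.0%, 15.2% and 15.3% in WT and 18.2%, 18.7% and 18.0% in the OX-labelled libraries. The share of COCSUDRAFT_64185 went the other way, from 13.0%, 11.2% and 12.7% in WT to 7.16%, 7.66% and 9.63%, although the gene itself rose. In these 3 genes the groups did not overlap. They did not overlap in COCSUDRAFT_67011 either, with 7.30% ± 0.969 in WT and 4.55% ± 0.887 in the OX-labelled libraries (SD, n = 3). Over the whole family, every OX-labelled share lay above every WT share in 3 members and below every WT share in 10. The groups overlapped in the other 12. The 2 members with the most counts in a library held 28.8% ± 1.08 of the antenna counts in WT and 34.6% ± 1.78 in the OX-labelled libraries (SD, n = 3). These shares were not tested, and they are shares of counts, not of molecules, since longer transcripts give more counts.

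**Figure D4:**
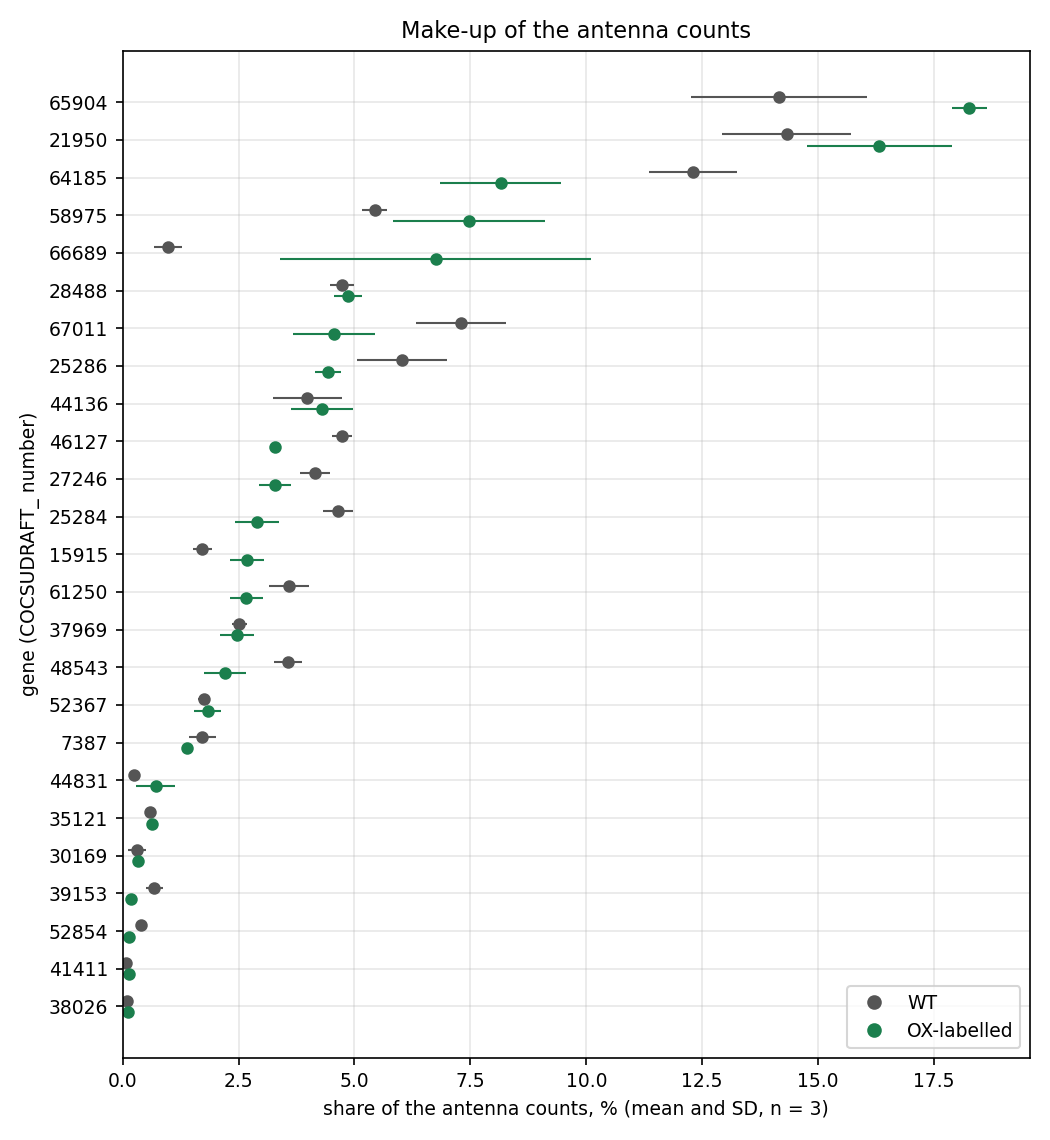
Share of the antenna counts held by each of the 25 genes, in percent, as mean and SD over 3 libraries, with WT in grey and OX-labelled libraries in green. COCSUDRAFT_65904 has the largest OX-labelled share; COCSUDRAFT_66689 goes from 0.978% to 6.76% and COCSUDRAFT_64185 from 12.3% to 8.15%.

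Among the OX-labelled libraries, the antenna level was highest in replicate 1. This library held the highest CPM for 23 of the 25 members, and replicate 2 for the other two. Replicate 3 held the lowest CPM for 17 members and replicate 2 for 8. No such counts were made for all tested genes, so this order cannot be called particular to the antenna genes. The median over members of the log2 ratio to the WT mean was 2.16 in OX replicate 1, 1.74 in replicate 2 and 1.45 in replicate 3. The highest OX-labelled library exceeded the lowest by a median of 1.45 times over members and 1.46 times over all tested genes. It did so by 5.97 times for COCSUDRAFT_41411, 5.86 times for COCSUDRAFT_44831, 4.62 times for COCSUDRAFT_66689 and 3.06 times for COCSUDRAFT_30169. The part of library differences in these spreads was not tested.

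Many genes that work beside the antenna were also higher in the OX-labelled libraries. A list of photosystem subunits and assembly factors, made by product name, held 25 genes, of which 24 were tested, 14 were called higher, 0 lower and 10 did not pass in edgeR (median log2 fold change 0.71). Of all tested genes, 15.6% were called higher and 8.98% lower. The list includes a protease, an RNA-binding protein and genes named only for a PsbP-like domain. The core proteins PsaA and PsaB are not in it, so it does not stand for whole photosystems. COCSUDRAFT_32536, a subunit of the oxygen-evolving complex that splits water, held 78.8, 129 and 82.9 CPM in WT and 1240, 857 and 439 CPM in the OX-labelled libraries (log2 fold change 3.12, SE 0.35, edgeR adjusted p = 0.000155). Its OX-labelled libraries fell in the same order as those of COCSUDRAFT_66689. The summed antenna share and the share of this whole list (1.11%, 0.857% and 0.771%) had that order too, so it is not particular to these genes. PsbQ, COCSUDRAFT_13028, of the same complex, rose from 154 ± 14.0 to 456 ± 69.3 CPM (SD, n = 3; log2 fold change 1.56, edgeR adjusted p = 0.000224). Antenna counts were 1.01, 1.01 and 0.966 times those of this list in WT and 2.00, 1.97 and 2.11 times in the OX-labelled libraries. The groups did not overlap in this ratio, which was not tested. The list also holds COCSUDRAFT_21732, the photosystem II protein Psb28, named after its values were seen. It held 1089, 1081 and 984 CPM in WT and 694, 882 and 330 CPM in the OX-labelled libraries. Every OX-labelled library thus lay below every WT one, as in 1698 of all 8575 tested genes (log2 fold change -0.73, SE 0.29, edgeR adjusted p = 0.0837). It was the list's 1 gene called lower with scaling by library size only, in the DESeq2 Wald test, with the replicate block and without OX replicate 2 (adjusted p from 0.023 to 0.169 over all alternatives). It gave 19.8% to 21.6% of the list's counts in WT and 4.40% to 9.73% in the OX-labelled libraries. Without it, antenna counts were 1.2 to 1.28 times those of the list in WT and 2.12, 2.18 and 2.21 times in the OX-labelled libraries. Without OX replicate 3, 17 genes of the list and 1627 of all 8630 tested were higher. Without WT replicate 3, these numbers were 9 and 865 of 8639. No gene of the list was called lower in these 2 fits.

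Of 21 genes for the synthesis of chlorophyll and its tetrapyrrole precursors, 15 were called higher, 1 lower and 5 did not pass (median log2 fold change 0.92), beside 15.6% higher and 8.98% lower among all tested genes. Glutamate-1-semialdehyde aminomutase, COCSUDRAFT_29973, an early enzyme of the pathway, rose from 70.8 ± 6.97 to 198 ± 27.3 CPM (SD, n = 3; log2 fold change 1.48, edgeR adjusted p = 0.00029). The geranylgeranyl reductase gene COCSUDRAFT_31829, whose product supplies the phytol chain of chlorophyll, held 172, 176 and 187 CPM in WT and 428, 404 and 554 CPM in the OX-labelled libraries (log2 fold change 1.38, edgeR adjusted p = 0.000434). Here OX replicate 3 was the highest library, unlike in any antenna gene. The list's called genes numbered 10 without WT replicate 1, WT replicate 2 or OX replicate 1, all higher. In these fits 8.54%, 10.1% and 11.6% of all tested genes were called higher and 3.63%, 4.79% and 4.81% lower. Without OX replicate 3 there were 15 higher and 2 lower, beside 18.9% higher and 14.3% lower of all 8630 tested genes. The gene called lower, COCSUDRAFT_57875, named uroporphyrinogen-III cosynthase, went from 128 ± 17.9 to 83.4 ± 7.39 CPM (SD, n = 3; log2 fold change -0.62, edgeR adjusted p = 0.0267). It did not pass without WT replicate 1, 2 or 3 or OX replicate 1 (edgeR adjusted p from 0.0531 to 0.129). The other gene called lower without OX replicate 3 was COCSUDRAFT_12706, a magnesium chelatase fragment, at 31.3 ± 2.02 and 21.2 ± 3.20 CPM (SD, n = 3; log2 fold change -0.56, edgeR adjusted p = 0.0641 with all libraries and 0.0204 without that one). Both were named after their values were seen. Other genes of the list named for these enzymes had positive log2 fold changes. COCSUDRAFT_37532, a uroporphyrinogen-III synthase, was at 0.53 and did not pass (edgeR adjusted p = 0.0945). The magnesium chelatase genes COCSUDRAFT_54337 and COCSUDRAFT_35407 were called higher (0.92 and 0.89, edgeR adjusted p = 0.0237 and 0.0124). COCSUDRAFT_62355, a further one, did not pass (0.65, edgeR adjusted p = 0.0899).

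**Figure D5:**
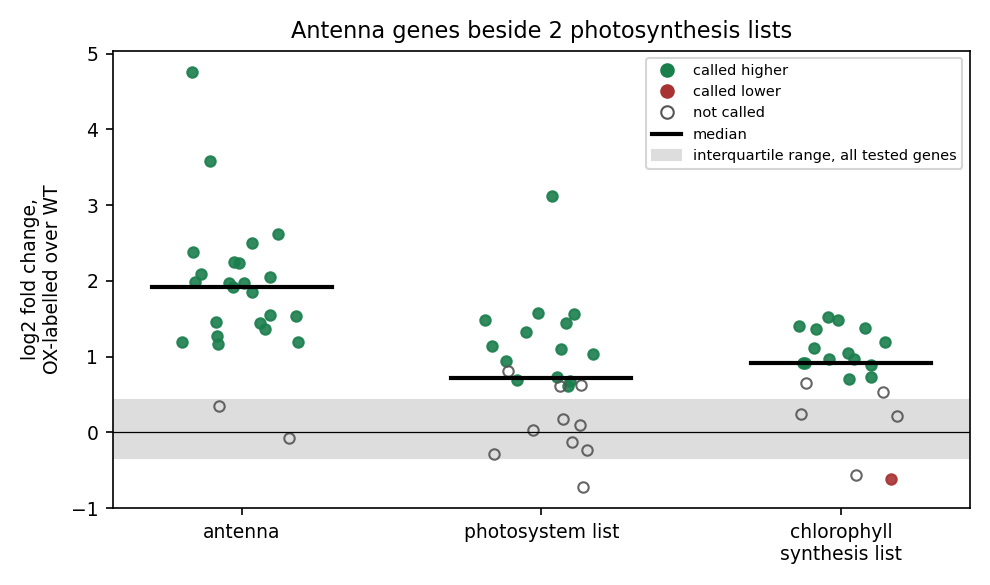
Log2 fold change, OX-labelled over WT, of each tested gene of the antenna family and of the photosystem and chlorophyll synthesis lists. Filled points passed edgeR's test (green higher, red lower), open points did not, black lines are list medians (1.92, 0.71 and 0.92) and the grey band runs from the lower to the upper quartile of all tested genes (-0.35 to 0.42).

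The search for genes that act on the antenna found only 2, and neither passed. Zeaxanthin epoxidase, COCSUDRAFT_42814, an enzyme of the xanthophyll cycle, which adjusts how much light energy the antenna gives off as heat, held 131, 127 and 135 CPM in WT and 95.3, 177 and 180 CPM in the OX-labelled libraries (log2 fold change 0.20, SE 0.23, edgeR adjusted p = 0.569). A gene for the 54 kDa protein of the signal recognition particle, COCSUDRAFT_53432, held 84.8 ± 6.57 and 72.2 ± 14.3 CPM (SD, n = 3; log2 fold change -0.23, edgeR adjusted p = 0.404). Its name does not say whether it belongs to the chloroplast particle that carries antenna proteins to the thylakoid or to the one in the cytosol. The name of a further gene, COCSUDRAFT_52338, is chlorophyll antenna size regulatory protein, and this gene was picked after its values were seen. It held 67.2, 74.3 and 65.0 CPM in WT and 45.1, 40.1 and 43.5 CPM in the OX-labelled libraries. As in 1698 of all 8575 tested genes, every OX-labelled library lay below every WT library (log2 fold change -0.68, SE 0.17, edgeR adjusted p = 0.0148). It did not pass without WT replicate 2 (edgeR adjusted p = 0.076).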

How the data were processed

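Messenger RNA was sequenced in 6 libraries, 3 per group, from Trizol-extracted RNA with a directional kit, per the labels' protocols. Each deposited file lists raw counts for the genes of 1 library. The submitters' processing notes list the tools FastQC, Trim Galore, HISAT and HTSeq. The build, the strand setting and the handling of reads that match several genes are not stated, and since antenna genes resemble one another, reads could be lost or split between them.

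Here edgeR 4.0.16 (R 4.3.3) tested 8575 genes kept by filterByExpr, with TMM scaling and the robust quasi-likelihood F test on group (two-sided). Benjamini-Hochberg adjustment ran over all tested genes, with a threshold of 0.05. SE was taken as the log2 fold change divided by the root of F. Levels are TMM-scaled CPM, and shares use library totals. With 3 libraries per group an exact permutation p is at least 0.1, so none is given. Intervals on shares are 95% Clopper-Pearson and, as with the 3-count floor, cover counting error only. No libraries were duplicates (lowest chi-square of a pair, divided by its degrees of freedom, 6.97). RefSeq (assembly GCF_000258705.1) matched all 9490 locus tags and gave gene order only. On simulated data for this comparison (8584 genes tested), the fit recovered 69 of 100 genes with a 2-fold change and 100 of 100 with a 4-fold change, with 2.87% of calls false. The simulation gave all genes the same spread, and the changed genes were few and drawn from those above a low mean count. These rates therefore do not cover members with a wider spread, such as COCSUDRAFT_66689, or data with as many genes called as here.

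The members, lists and tests were chosen with earlier results of these data known. Every member was named, with the 2 genes of lowest p from each other list. COCSUDRAFT_52338, COCSUDRAFT_57875, COCSUDRAFT_21732 and COCSUDRAFT_12706 were named after their values were seen. So were COCSUDRAFT_37532, COCSUDRAFT_54337, COCSUDRAFT_35407 and COCSUDRAFT_62355, for which no values from the alternatives are given. Lists came from patterns on product names, minus the antenna genes. Levels per length, protein features and promoter motifs were planned and not run, since no sequence or coding length was used here. Alternatives were other scalings, filters and thresholds, DESeq2 1.42.0, limma-voom (limma 3.58.1), the replicate number as a block, and each library left out, which for the named genes outside the family were added after seeing the data.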

Additional observations from a re-analysis of the deposited data

How the results depend on the processing

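Of the 25 members, 23 kept their direction and their side of the threshold in all 14 other fits. The number called higher was 22 to 23 with 1 library left out and 23 in each other setting, the replicate block (23) included. Of all tested genes, 8.54% to 18.9% were called higher with 1 library left out and 8.86% to 16.2% in the other settings. COCSUDRAFT_41411 lost its call without WT replicate 1, and COCSUDRAFT_39153, which was not called, ran from -0.29 to 0.041 with 1 library left out, with its sign changed without WT replicate 3 (0.041) and without OX replicate 3 (0.013); the cause was not tested. Deviations from the group mean showed no pairing by replicate number, with same-numbered correlations of -0.165, 0.153 and 0.0628 against -0.314 to 0.277 for other pairs. With 3 libraries per group this cannot exclude a pairing. The block gave 2098 calls over all genes in place of 2107. Over all genes, calls ran from 1050 to 2859 with 1 library left out and were 966 at an adjusted p under 0.01. Scaling by library size only gave 1140 higher and 995 lower calls in place of 1337 and 770. With 1 library left out, calls ran from 9 to 17 for the photosystem list and from 10 to 18 for chlorophyll synthesis, which had 10 at an adjusted p under 0.01. The MADS-box gene passed with DESeq2 size factors (-0.52, also by the DESeq2 Wald test, -0.52), library size only (-0.58), upper quartile scaling (-0.54) and no filter (-0.55), with adjusted p from 0.0295 to 0.168 over all settings. Without COCSUDRAFT_65904, the member with the most counts, the antenna share was 0.45% in WT and 1.51% in the OX-labelled libraries, and the ratio to the photosystem list 0.853 and 1.66. Without COCSUDRAFT_21732 in that list, chosen after seeing the data, the ratio was 1.25 and 2.17. Leaving out members by protein motif and scaling levels by coding length were not run. Depth limits most the 5 members with under 100 counts in some library.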
